A study of Mus musculus with 6 samples.

Results

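The genes described are Trp53, which encodes the tumour suppressor p53, its regulators Mdm2 and Mdm4, and 7 of its targets, Bax, Bbc3, Pmaip1, Sesn1, Sesn2, Gadd45a and Trp53inp1. These 10 genes, taken by name and placed on the mouse build mm10 with RefSeq coordinates, belong to 21887 protein-coding genes on the chromosomes. Chromatin accessibility was measured by ATAC-seq, in which a transposase cuts open DNA, on whole cells of 1 line of c-myc-immortalized mouse embryonic fibroblasts, line A or C2. The design holds 6 samples in 3 groups: 2 wild-type, 2 Ezh2 -/- and 2 Ezh2 -/- with retroviral pMSCV-Ezh2 as a rescue, all of the immortalized line. Ezh2 is the enzyme of Polycomb repressive complex 2. All values below come from 1 list of accessible intervals of the Ezh2 -/- cells, whose name gives C2. It gives no value per replicate, so no error, no test and no comparison between genotypes can be given. The wild-type and rescue groups were not analysed here, and the labels do not say whether Trp53 is intact in this line.

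p53 is a transcription factor that DNA damage and other stresses stabilise. Mdm2 ubiquitinates p53 and marks it for destruction, Mdm4 binds it and blocks its activity, and Mdm2 is itself a p53 target, which closes a feedback loop. Among the targets, Bax permeabilises the outer mitochondrial membrane, while Bbc3 (PUMA) and Pmaip1 (NOXA) are small BH3-only proteins that neutralise survival factors of the BCL2 family. Sesn1 and Sesn2 encode sestrins that restrain growth signalling through mTORC1, Gadd45a links damage to stress kinases and repair, and Trp53inp1 encodes a p53-induced nuclear protein that promotes cell death and autophagy. In fibroblasts p53 limits proliferation driven by oncogenes such as Myc.

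Each interval carries the total signal of the called region it belongs to (the area under its coverage) and the maximum signal (its height), both in the authors' own unit. Total signal grows with width, so a high total can be a tall or a broad region. The list held 21835 intervals with a median width of 2453 bp, from 19215 called regions. Their median total signal was 29082 and their median maximum 27. A percentile below is the share of these called regions with a lower value. In bulk cells, more open cells and more cutting per cell cannot be told apart.

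Of the 10 genes, 8 had an interval over the gene and the same 8 had an interval within 1 kb of a gene end. Among all protein-coding genes the shares were 52.8% over the gene and 47.4% at an end. Within 50 kb of the gene, 9 of 10 had at least 1 interval, against 71.0% of all genes. Mdm4 and Pmaip1 were the genes without an interval over them, and Pmaip1 also had none within 50 kb. The number of intervals within 50 kb ran from 0 at Pmaip1 to 7 at Mdm2, with a median of 3 (2 over all genes, quartiles 0 and 4).

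**Figure D1:**
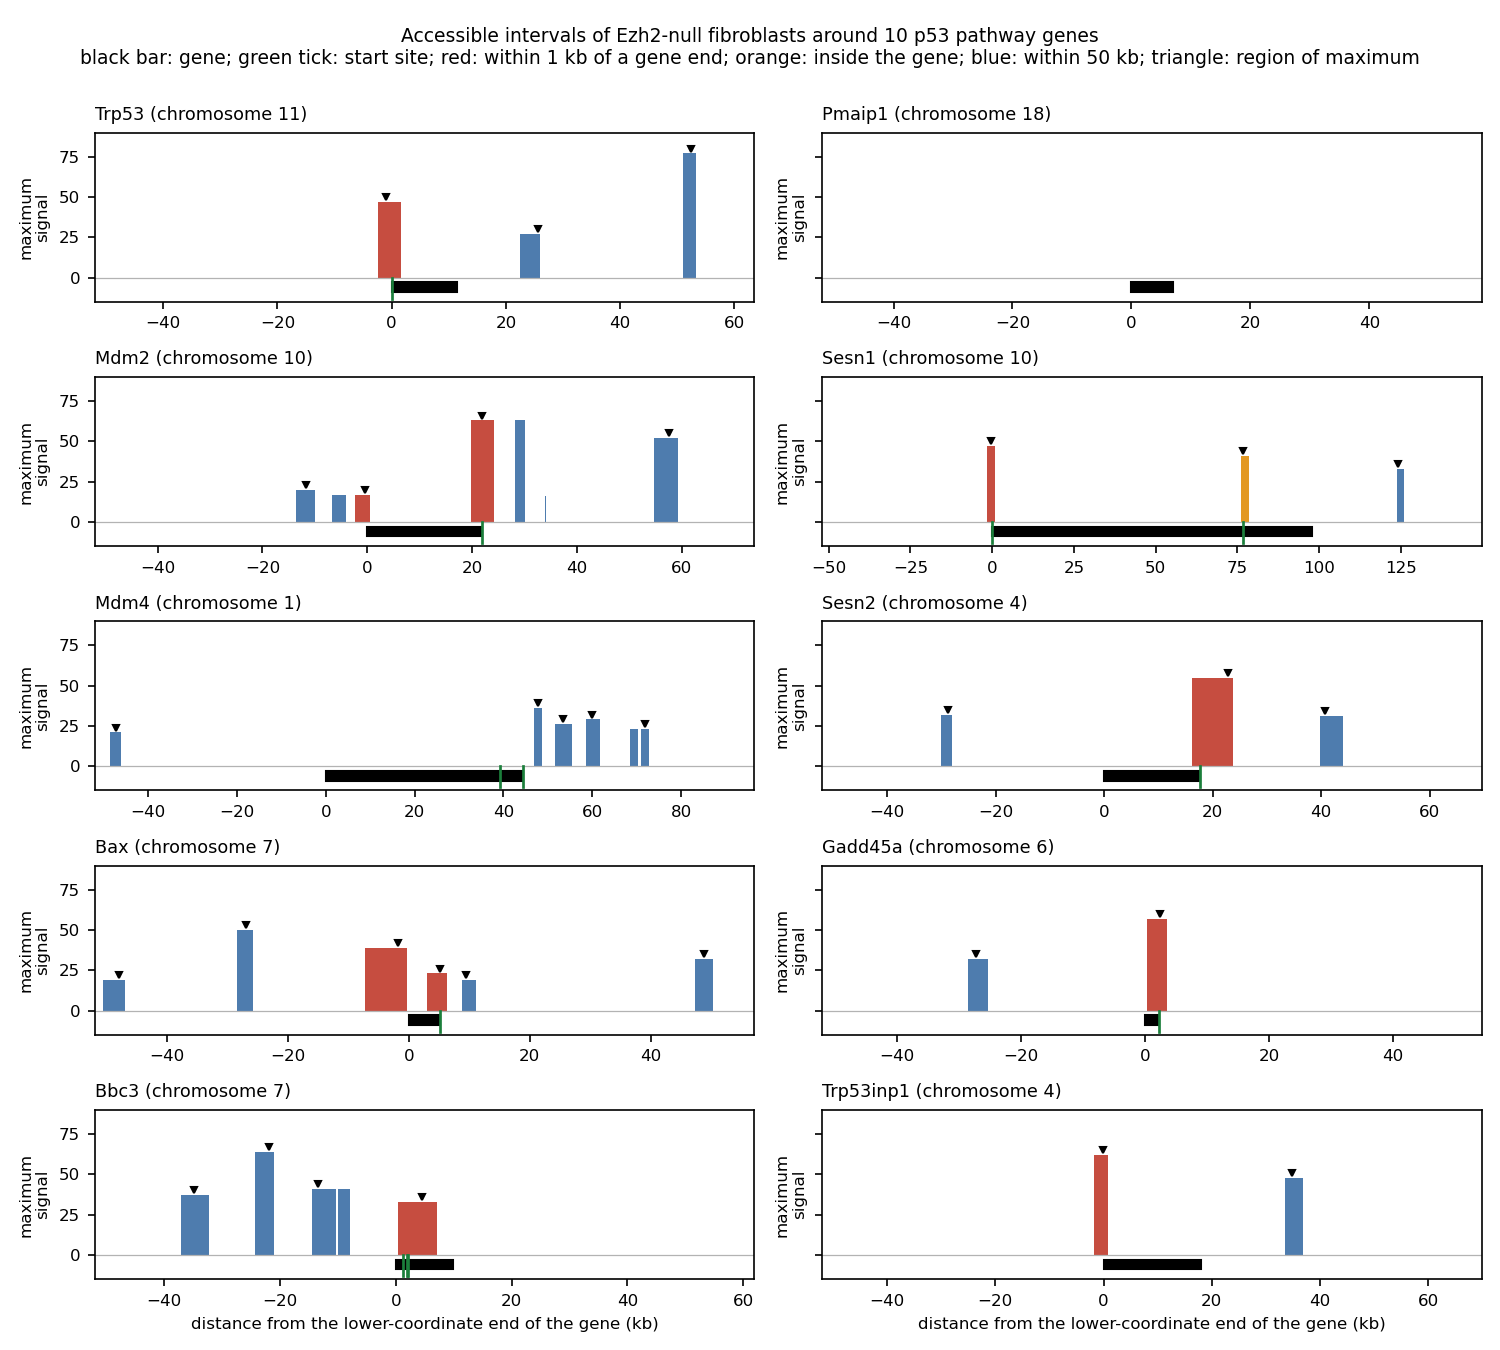
Intervals around each of the 10 genes, by distance from the lower-coordinate end of the gene in kb (x) and maximum signal of the called region in the authors' unit (y, also for pieces whose region of maximum lies elsewhere); black bars are genes, green ticks RefSeq start sites of 8 genes, triangles regions of maximum. Red intervals lie within 1 kb of a gene end, the orange interval lies inside Sesn1 and blue ones lie within 50 kb; the Pmaip1 panel is empty and the Mdm4 gene body holds none.

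Trp53 itself lay at chr11:69580348-69591873 and had 1 interval, at chr11:69578018-69581990, which covered 14.3% of the gene including its RefSeq start site at 69580359 on the plus strand. This interval was 3973 bp wide, with a total signal of 65234 (percentile 87.9) and a maximum of 47 (percentile 85.4). The height did not lie at the Trp53 start. The region of maximum, 69579319 to 69579323, lay 1038 bp before it and inside the neighbouring gene Wrap53, which is read in the opposite direction and encodes a telomerase-associated protein. The nearest RefSeq start site of Wrap53 was 72 bp from the maximum. Start sites of both genes lay within the same interval, whose signal cannot be divided between them. The next intervals lay 10988 bp beyond the other end, at Atp1b2 (maximum 27), and 39568 bp away at Fxr2 (maximum 77, percentile 99.0). Within 1 Mb of Trp53, 63 of 98 other genes (64.3%) had a gene-end interval, and 60.5% of those on chromosome 11 did.

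Mdm2, at chr10:117688875-117710758 on the minus strand, had the highest maximum signal of the 10 genes. Its start site at 117710758 lay in an interval of 4351 bp at chr10:117708619-117712969, and the region of maximum coincided with the start site (distance 0 bp). The total signal was 83925 (percentile 93.2) and the maximum 63 (percentile 96.1). Among the 10378 genes with a gene-end interval, Mdm2 exceeded 90.8% in maximum signal. The same called region reappeared as a separate piece of 1823 bp at 6361 bp upstream. A weaker region lay over the 3′ end (chr10:117686557-117689312, total signal 42233, maximum 17, percentile 19.7 by maximum), which also reached the end of the carboxypeptidase gene Cpm. This 3′ interval overlapped Mdm2 by 438 bp, its maximum lay 487 bp outside the gene, and another piece of the same called region lay over Cpm. Its total signal is therefore not a value of Mdm2 alone. Mdm2 thus had an interval at both ends, with a tall start and a low 3′ region.

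Mdm4, at chr1:132986105-133030587 on the minus strand, stood apart from Mdm2: none of the 6 intervals within 50 kb touched the gene. Its RefSeq start sites, at 133030587 and 133025416, lay 2419 and 7590 bp from the nearest interval, chr1:133033006-133034773 (1768 bp, total signal 31306, maximum 36, percentile 69.4). This interval lies upstream of the gene. It lies over the long non-coding gene Gm41953 and holds 2 tRNA genes, n-TKctt26 and n-TKctt25, and its region of maximum was 68 bp from the former. Of all protein-coding genes, 2.14% likewise had no interval over them but had an interval within 2500 bp. Further intervals lay 7070 bp upstream (maximum 26) and at an end of the phosphoinositide kinase gene Pik3c2b (maximum 29). Among the genes within 1 Mb of Mdm4, 15 of 28 (53.6%) had a gene-end interval.

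The sequences before the start sites of Mdm2 and Mdm4 are shown because these are the regulators with and without an interval at the start. Each is the 250 bases before the start from RefSeq (GRCm38.p6, the assembly of mm10), minus strand, 5′ to 3′, with CpG dinucleotides in capitals. The windows are chr10:117710759-117711008 for Mdm2, chr1:133030588-133030837 for the outer and chr1:133025417-133025666 for the inner start of Mdm4.
Mdm2: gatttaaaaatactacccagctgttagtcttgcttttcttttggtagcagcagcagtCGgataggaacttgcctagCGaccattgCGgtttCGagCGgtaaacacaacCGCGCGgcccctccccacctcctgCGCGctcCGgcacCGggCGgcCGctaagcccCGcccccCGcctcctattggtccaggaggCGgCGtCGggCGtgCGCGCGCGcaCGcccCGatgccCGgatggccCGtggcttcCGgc
Mdm4 outer start: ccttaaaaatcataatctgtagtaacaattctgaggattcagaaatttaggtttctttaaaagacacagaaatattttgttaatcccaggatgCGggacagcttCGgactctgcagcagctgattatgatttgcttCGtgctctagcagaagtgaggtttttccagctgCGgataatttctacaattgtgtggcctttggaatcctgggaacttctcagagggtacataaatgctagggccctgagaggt
Mdm4 inner start: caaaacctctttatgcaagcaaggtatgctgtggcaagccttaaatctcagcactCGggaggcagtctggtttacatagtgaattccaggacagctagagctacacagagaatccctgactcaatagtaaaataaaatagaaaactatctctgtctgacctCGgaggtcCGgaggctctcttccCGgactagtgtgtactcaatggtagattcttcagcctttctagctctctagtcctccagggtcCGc
Mdm2 held 29 CpG and a GC share of 65.6%. The Mdm4 windows held 4 CpG (GC 41.6%) and 5 CpG (GC 47.2%).

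The promoter table held 12 start sites for 8 of the 10 genes (all but Pmaip1 and Trp53inp1). At least 1 start site lay inside an interval at 7 of these 8 genes, against 45.3% of the 17492 protein-coding genes with a start site in the table. Over all 21238 protein-coding start sites, the share inside an interval rose with the CpG number of the 250 bases before the start, from 8.16% with 0 to 4 CpG to 32.4% with 5 to 9 and 80.8% with 25 or more. The start sites of Bbc3 (27, 23 and 37 CpG), Sesn1 (23 and 24), Sesn2 (18), Bax (14) and Gadd45a (11) were all above the median of 10, and all were inside an interval. Trp53 was inside an interval with 9 CpG. The Mdm4 start sites were in the classes where fewest start sites of any gene were inside, and of the 1864 start sites with 4 or 5 CpG 19.7% were.

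**Figure D2:**
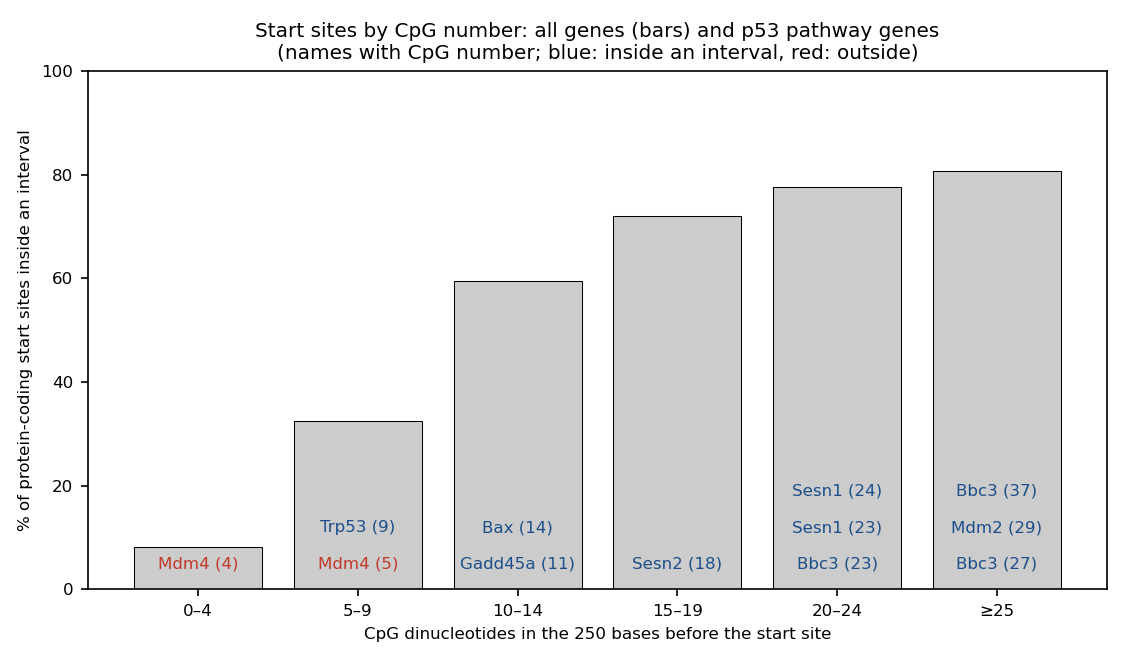
Share of protein-coding start sites inside an interval (y, %) by CpG number in the 250 bases before the start (x); names show the 12 start sites of the 8 genes with their CpG number, blue inside an interval and red outside. The bars climb from 8.16% to 80.8%, and the 2 Mdm4 starts stand in the 2 leftmost classes.

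Of the apoptosis genes, Bax had an interval near each end, and the stronger was not at its start. Bax lies at chr7:45461695-45466903 on the minus strand. Its start site, 45466898, lay in an interval of 3283 bp (chr7:45464675-45467957) with a total signal of 24561 (percentile 39.0) and a maximum of 23 (percentile 39.1), the lowest total at any of the gene ends described. The maximum lay 120 bp into the gene. The interval at the 3′ end, chr7:45454513-45461458, was 6946 bp wide with a total signal of 82001 (percentile 92.8) and a maximum of 39, ended 237 bp short of Bax and had its maximum 44 bp from the start of Ftl1, the ferritin light chain gene. This called region also covered all of Ftl1 and an end of the glycogen synthase gene Gys1, and its total signal cannot be divided among the genes. The interval over the Bax start was below the median of the list in total and in maximum signal.

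Bbc3, at chr7:16308398-16318334 on the plus strand, was covered by 1 broad interval, chr7:16308763-16315487, over 67.7% of its length. The interval was 6725 bp wide, wider than 96.1% of all intervals, with a total signal of 90029 (percentile 94.3) but a maximum of 33 (percentile 63.6). All 3 RefSeq start sites (16309583, 16310261 and 16310431) lay inside. The region of maximum, at 16312873, was 2442 bp past the last of them, inside the gene. No other protein-coding gene had an end in this interval. Upstream of Bbc3 stood a called region in 2 pieces over no protein-coding gene, 7953 and 10352 bp from the gene (total signal 81192, maximum 41, percentile 92.6 by total), and 2 regions at Ccdc9 with maxima of 64 and 37. Bbc3 was therefore wide, with a maximum below that of Mdm2.

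Pmaip1, at 66458604 to 66465558 on chromosome 18, had no interval in its neighbourhood. The nearest lay 268868 bp below, at 66188085 to 66189736 (total signal 39905, maximum 25), and the nearest above began 499952 bp beyond the gene. The stretch without an interval was 775773 bp long and touched 3 protein-coding genes. Of all protein-coding genes, 14.9% lay at least as far from their nearest interval as Pmaip1. Of the 511 genes of chromosome 18, 45.0% carried an interval at an end, as did 7 of the 18 genes within 1 Mb of Pmaip1 (38.9%). An interval is listed only above the authors' threshold, whose lowest total signal was 15316, so accessibility below it was not detectable in this list.

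Sesn1 spans chr10:41810574-41908436 on the plus strand and had an interval at each of its RefSeq start sites. The upstream start at 41810574 lay in chr10:41808903-41811518 (2616 bp, total signal 76475, percentile 91.5, maximum 47). The maximum was 262 bp before the start, between Sesn1 and the oppositely directed gene Cep57l1, whose start was 444 bp from it. The inner start at 41887439 lay in chr10:41886839-41888998 (2160 bp, total signal 34046, percentile 59.7, maximum 41), with the maximum 28 bp past the start and no other protein-coding gene beneath. The inner start had a maximum close to that of the upstream start and a lower total. As it lies inside the gene, it does not count in the gene-end share.

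Sesn2, at chr4:132492804-132510456 on the minus strand, had the highest total signal of the 10 genes, 110140 (percentile 96.6), over an interval of 7544 bp at chr4:132508957-132516500 (wider than 97.3% of intervals). The maximum, 55 (percentile 92.2), did not lie at the Sesn2 start site (132510456), which was 5172 bp away. It lay upstream, over no protein-coding gene and 378 bp from the tRNA gene n-TAagc8. Sesn2 overlapped 1500 bp of the interval, and the other 6044 bp lay before its start. No other protein-coding gene had an end there. Around Sesn2, 29 of 37 genes within 1 Mb (78.4%) had a gene-end interval, the highest such share among the 10 genes.

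Gadd45a, a gene of 2312 bp at chr6:67035096-67037407 on the minus strand, was covered over 86.0% of its length by an interval of 3189 bp (chr6:67035419-67038607). Its total signal, 38533, was moderate (percentile 66.5), and its maximum, 57, was high (percentile 93.5). The maximum lay 75 bp before the start site. The long non-coding gene E230016M11Rik also overlapped this interval, and its nearest start was 883 bp from the maximum. Gadd45a was open in a sparse setting: only 3 of 14 genes within 1 Mb (21.4%) had a gene-end interval, beside 41.7% on chromosome 6.

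Trp53inp1, at chr4:11156441-11174379, had an interval of 2519 bp over its lower end (chr4:11154653-11157171) that reached 731 bp into the gene. The total signal was 36054 (percentile 63.0) and the maximum 62 (percentile 95.7), next to the 63 of Mdm2. The region of maximum, 11156307 to 11156308, lay just outside the lower end of the gene. The only other interval within 50 kb was at the cyclin gene Ccne2, 15562 bp away (total signal 56992, maximum 48).

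Across the 10 called regions at the gene ends, total signal ran from 24561 to 110140 with a median of 70854.5, and maximum signal from 17 to 63 with a median of 47. Taking the highest region of each gene, the median total was 79238 for the 8 genes and 39334.5 for all genes with a gene-end interval, and the median maximum 51 against 39. The 2 measures ordered the genes differently. By total signal the order was Sesn2, Bbc3, Mdm2, Bax (the region at Ftl1), Sesn1, Trp53, Gadd45a and Trp53inp1, and by maximum it was Mdm2, Trp53inp1, Gadd45a, Sesn2, Trp53 and Sesn1 (equal), Bax (the region at Ftl1) and Bbc3. With the interval over its own start (total 24561, maximum 23), Bax came last in both orders. With no replicate values, no neighbours in these orders can be said to differ. Among the 8 genes, Gadd45a and Trp53inp1 ranked low in total and high in maximum and Bbc3 ranked the other way. Both measures were above the median of the whole list at all 3. Against the 10378 genes with a gene-end interval, the low measures were below the median. Gadd45a and Trp53inp1 exceeded 48.8% and 44.9% of these genes in total signal, and Bbc3 exceeded 34.2% in maximum signal.

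**Figure D3:**
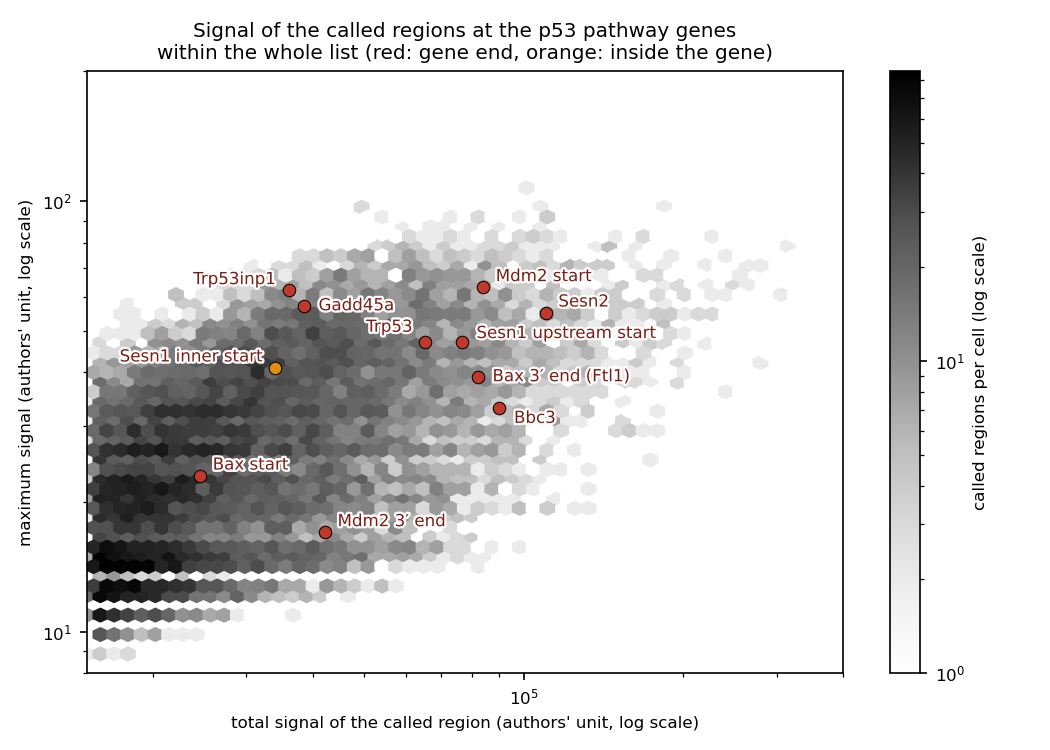
Total signal (x, authors' unit, log scale) and maximum signal (y, authors' unit, log scale) of the called regions, shaded by number of regions, with the regions at the 8 genes as points (red at a gene end, orange inside Sesn1) (9 called regions lie outside the plotted range). Trp53inp1 and Gadd45a have maxima of 62 and 57 at totals of 36054 and 38533, the Bax start at 24561 sits among the bulk of the list, and the 3′ region near Bax is the region whose maximum lies at Ftl1.

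The distance of the maximum from the nearest start site was within 300 bp at Mdm2, Sesn1, Gadd45a and Bax, 4 of the 7 genes with a start site inside an interval that held its own maximum, and beyond 1000 bp at Trp53, Bbc3 and Sesn2. Among 7609 protein-coding genes measured alike, 80.8% were within 300 bp and 6.18% beyond 1000 bp, with a median of 93 bp (120 bp over the 7 genes). Trp53 and Sesn2 had their maximum upstream, close to the start of Wrap53 and to a tRNA gene, and Bbc3 had it downstream inside the gene. At these 3 genes the maximum signal of the region is therefore not a value of the start site.

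**Figure D4:**
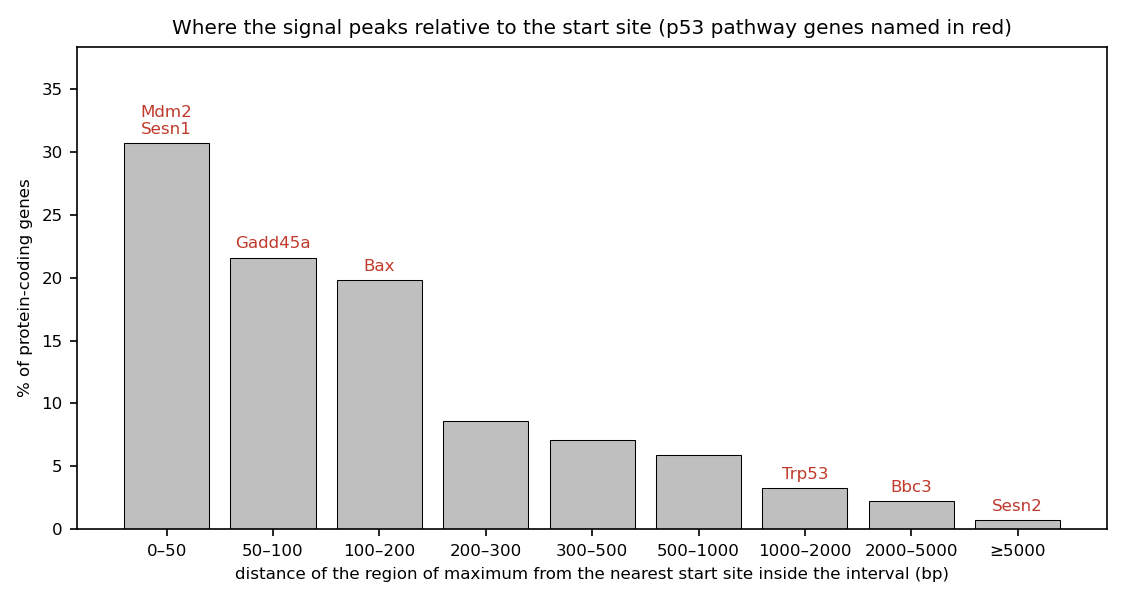
Share of protein-coding genes (y, %) by distance in bp between the region of maximum and the nearest start site inside the interval (x, classes of unequal width), with the 7 genes named in red over their class. Mdm2 and Sesn1 are in the class under 50 bp with 30.7% of genes, and Sesn2 is in the class from 5000 bp, which holds 0.723%.

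The letters of the 250 bases before the 12 start sites were searched on both strands. The GC box (GGGCGG), a binding sequence of Sp1-type factors, was in 9 of 12 windows and in 42.6% of 21238 protein-coding windows. It was missing from both Mdm4 windows and from Trp53. CCAAT was in 7 of 12 (35.4% of all), CACGTG in 2 (6.63%; Bax and the last Bbc3 start, the core letters bound by Myc and Max), TATAAA in 1 (11.6%; far upstream in the Trp53 window), CCGGAAG in 1 (8.99%; Mdm2), TGANTCA in 1 (6.14%; the inner start of Mdm4), CATGCGC in 1 (3.97%; Bax) and TGACGT in 0 (7.36%). The windows of the last 2 Bbc3 starts overlap, and GC boxes may overlap each other.

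The full p53 element, 2 decamers with a spacer of 0 to 13 bases and no mismatch, was in 0 of the 12 windows and in 0.0471% of all. This says only that these letters are not in these windows, since p53 elements often lie further away or inside the first intron, as in Mdm2. The decamer by itself (3 purines, C, 2 of A or T, G, 3 pyrimidines), a search added after the first results were seen, was in 5 of 12 windows and in 6.30% of all. The 5 matches, each a single decamer and not a full element, are printed with flanks. They run 5′ to 3′ on the strand of the gene, with the decamer in capitals. The windows are chr11:69580264-69580313 (plus strand) for Trp53, chr10:117710915-117710964 (minus) for Mdm2, chr7:45467070-45467119 (minus) for Bax, chr10:41887246-41887295 (plus) for the inner start of Sesn1 and chr6:67037418-67037467 (minus) for Gadd45a.
Trp53: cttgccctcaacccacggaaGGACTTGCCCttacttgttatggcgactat
Mdm2: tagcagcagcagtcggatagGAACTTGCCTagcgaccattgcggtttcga
Bax: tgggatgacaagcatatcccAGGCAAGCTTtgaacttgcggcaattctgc
Sesn1 inner start: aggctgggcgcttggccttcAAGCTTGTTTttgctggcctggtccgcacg
Gadd45a: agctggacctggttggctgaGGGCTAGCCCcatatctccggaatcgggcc
Each decamer lay inside the interval of its gene, but at these 5 start sites no other outcome was possible. Their intervals reached from 600 bp (Sesn1 inner start) to 2341 bp (Trp53) before the start, further than the window searched. The decamers began 40 bp (Gadd45a) to 201 bp (Bax) before the start. The region of maximum was nearest to the decamer at Gadd45a (40 bp), then at Mdm2 (181 bp), Sesn1 (197 bp), Bax (316 bp) and Trp53 (967 bp). These distances depend largely on where the maximum lies relative to the start. Whether the decamers go with accessibility was not tested. A match is a description of letters and not a measurement of p53 binding.

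Beyond 1 kb of the genes, 26 intervals lay within 50 kb of the 10 genes. Of these 14 were at an end of another protein-coding gene, 6 were over a protein-coding gene away from its ends and 6 were over and beside none. Over the whole list 44.5% of 21759 intervals on the chromosomes were at a protein-coding gene end. The 6 intervals of the last kind lay at Mdm2 (a piece of the start region and an interval of 221 bp), at Mdm4 (the interval with the tRNA genes and the next upstream) and at Bbc3 (the pieces of 1 called region). Which gene, if any, these intervals act on was not tested.

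Of 77 other genes of the p53 pathway, 61 (79.2%) had a gene-end interval, beside the 47.4% of all genes, and 73 had an interval within 50 kb. Among 17 regulators of p53, such as damage kinases and acetyltransferases, 13 had a gene-end interval, led by the acetyltransferase gene Kat5 (total signal 84500, maximum 39) and the ubiquitin ligase gene Rchy1 (62510, maximum 54). Dyrk2 and Pml were 2 of the 4 without. Of 7 paralogs, family members and partners 4 had an interval, led by Gadd45g (106736, maximum 32) and Trp53inp2 (78494, maximum 43), whereas Gadd45b and the p53 family genes Trp63 and Trp73 had none at an end. Of 13 BCL2 family genes 11 had an interval. The BH3-only genes Bad (160026, maximum 46) and Bmf (130120, maximum 47) were the highest in total signal, above Bbc3 and Bax, and Bcl2a1a and Bcl2l2 had none.

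Of 14 caspase, apoptosome and death receptor genes, 10 carried an interval at an end, led by Diablo (61617, maximum 53) and Casp2 (56343, maximum 49). The initiator caspase gene Casp8 and Perp had none. All 11 genes of the metabolism and DNA repair targets had an interval, with Ddit4, an mTORC1 inhibitor (128385, maximum 58), and Fdxr (110384, maximum 71) the highest. Of 15 cell cycle and other targets 12 had an interval, led by Btg2 (174846, maximum 47) and the cyclin gene Ccng2 (87705, maximum 77), and Cdkn1a and Dram1 were 2 of the 3 without. Cdkn1a, the CDK inhibitor p21 and a classical p53 target, nevertheless had a start site inside an interval at chr17:29093153-29096049 (2897 bp, total signal 57783, maximum 46). This interval lies inside the gene, 2174 bp from its lower end. Its region of maximum lay 1836 bp from the nearest start site, so the maximum is not a value of that start site. A start site inside an interval was found at 5 of the 16 genes without a gene-end interval: Dyrk2, Trp53bp1, Xiap, Dram1 and Cdkn1a. The gene-end share thus misses start sites inside genes, as at the inner start of Sesn1. Trp63, Perp and Tnfrsf10b, also among the 16, have no start site in the promoter table and could not be assessed. The same share over all genes without a gene-end interval was not computed.

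**Figure D5:**
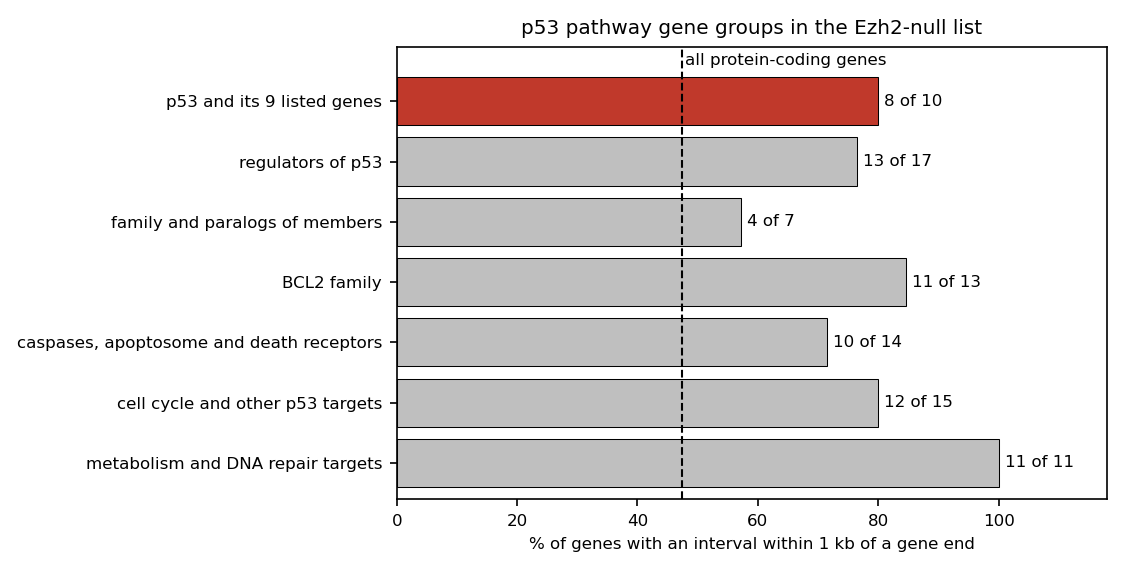
Share of genes with an interval within 1 kb of a gene end (x, %) in the 10 genes (red, 8 of 10) and in 6 groups of other p53 pathway genes (grey), with counts; the dashed line marks the share of all protein-coding genes, 47.4%. The groups run from 4 of 7 for family and paralogs to 11 of 11 for metabolism and DNA repair targets.

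The fibroblast label was checked on marker genes. Of 15 fibroblast markers 11 (73.3%) had a gene-end interval, beside 47.4% of all protein-coding genes, with Col6a1 and Col1a1 highest, and Dcn, Lum, Pdgfra and Thy1 had none. Of the markers of other cell types, 0 of 5 endothelial, 2 of 6 epithelial, 2 of 6 haematopoietic, 2 of 5 pluripotent and 2 of 5 neural genes had a gene-end interval. Apart from the endothelial list these shares, 33.3% to 40%, were not far below that of all genes, so the counts say little on cell identity. Pecam1, Epcam, Ptprc, Pou5f1 and Olig2 were among those without one at a gene end. Away from the ends, Pecam1 and the fibroblast marker Pdgfra had 2 intervals each over the gene, and Csf1r and Syp had 1 each. Those with an interval included the neuronal gene Rbfox3, whose total signal of 354291 was the highest of the 42 markers, the macrophage gene Cd68 (108340), the astrocyte gene Gfap (107725) and Sox2 (41538), and a start site of Cd68 and of Sox2 lay inside an interval. What part other cell types have in the list was not tested.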

How the data were processed

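ATAC-seq intervals of the Ezh2 -/- cells were taken from the list as deposited. Per the submitters' processing notes, the tools were Bowtie2 2.2.9, deepTools and the peak caller SEACR, and the build was mm10. Their order and settings, and whether the 2 replicates were pooled, are not stated. The 6 columns, which carry no header, were read as SEACR orders them. Total and maximum signal are values of a called region in the authors' own unit as deposited, and read depth is unknown. Intervals with the same values were counted as 1 called region (2148 regions had 2 or more), and 80.5% of intervals held their own region of maximum, so signal can belong to bases outside an interval.

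An overlap of 1 bp with the gene, with 1000 bp at both sides of each gene end, or with the gene and 50000 bp at either side counted. Genes came from RefSeq (GRCm38.p6), and start sites and sequences from its promoter table. No test was made, since 1 list holds no replicates. The members and lists were chosen with earlier results of these data known. Named were all 10 genes, genes sharing their intervals, and per pathway group the 2 highest by total signal and the first 2 in the alphabet without an interval. Python 3.11.15, numpy 2.4.6, pandas 2.3.3 and matplotlib 3.10.9 were used. The lookup was tested on simulated data, where 0 of 400 genes came out otherwise than by direct comparison.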

Additional observations from a re-analysis of the deposited data

How the results depend on the processing

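The count of 8 genes with an interval at a gene end was also 8 with windows of 500 bp (45.9% of all genes). It was 8 with an overlap of at least 200 bp (46.9%) and among intervals holding their maximum (45.1%). Among called regions above the median total signal it was again 8, beside 32.7% of all genes. With windows of 2500 bp, which take in Mdm4, the count was 9 (50.2% of all genes). With the 5′ end alone it was 7 of the 8 genes with a strand, beside 44.9% of all genes with a strand. Trp53inp1 and Pmaip1 have no strand in the promoter table and were not assessed there. Called regions whose total signal exceeded the upper quartile gave 6 (without Gadd45a and Trp53inp1, 19.6% of all genes). In settings chosen after seeing the data it was 7 without Bax, which only follows from leaving out 1 counted gene. It was 6 where the highest region's maximum lay closer to an end of the gene than to one of another protein-coding gene. Bax and Trp53 were lost there, and tRNA and long non-coding genes were not counted. For both settings the share of all genes was not computed. The count over the gene, 8, was 7 with regions above the median total signal (35.6% of all genes, Bax lost). With regions above the upper quartile it was 5 (21.1% of all genes, without Bax, Gadd45a and Trp53inp1). The count within 50 kb, 9, was also 9 within 25 kb (65.4% of all genes) and within 100 kb (77.0%). Counting only intervals beyond 1 kb of the gene it was again 9 (60.6%). Taking each gene's highest region, the median percentile of total signal over the 8 genes was 92.2 among all called regions. It was 87.1 among the 9185 called regions at gene ends, and 88.8 by maximum signal among all called regions. For the regions over a start site (7 genes, a setting added later) it was 91.5. These percentiles set a gene's highest region beside single regions. Except over a start site, Bax enters with the region at Ftl1. Against the 10378 genes with a gene-end interval, each by its highest region, the 8 genes exceeded 44.9% to 90.2% by total signal. By maximum signal they exceeded 34.2% to 90.8%. No paired analysis was possible because the list holds no value per replicate. Unknown depth and the authors' threshold limit what a missing interval can show.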

Other observations

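tRNA genes lay under the intervals of 2 of the 10 genes. The interval nearest to Mdm4 held n-TKctt26 (68 bp from the maximum) and n-TKctt25 (433 bp), and the interval over the Sesn2 start held n-TAagc8 (378 bp from the maximum). Over the chromosomes, 185 of 408 RefSeq tRNA genes (45.3%) were overlapped by an interval. This is a share of tRNA genes. The share of all protein-coding genes with a tRNA gene under an interval within 50 kb was not computed. Whether 2 of 10 is many or few is therefore not known. Whether these tRNA genes are transcribed in the cells was not tested.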
